A study of Mus musculus with 6 samples.

Results

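The receptors for interleukins, interferons and tumor necrosis factor (TNF) family cytokines were examined in mouse dorsal root ganglia (DRG) and neurofibromas with and without floxed Runx1 and Runx3. Members were every gene in the count data whose symbol begins with Il, a number and r, every Tnfrsf gene with a number, the receptors named Ifnar or Ifngr, and Il6st. This rule took 66 of 24062 genes, and 51 of the 66 had enough counts to be tested. It is a rule on names, so it also took Il1rn, which encodes a secreted antagonist and not a receptor, and it left out relatives with other names such as Ngfr, Osmr and Lifr, of which a fixed list is described after the receptors.

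The study deleted Runx1 and Runx3, which encode DNA-binding transcription factors, in a mouse model of neurofibroma, a tumor of the nerve sheath, to find the genes that respond. Bulk RNA-seq was made from 6 libraries, 3 per group. The 3 control libraries came from Nf1fl/fl;DhhCre mice, in which Cre driven by the Dhh promoter deletes the floxed Nf1 in Schwann cells (SCs) and their precursors, and their tissue is labelled DRG. The other 3 are labelled as neurofibromas with Runx1 and Runx3 both knocked out by the same DhhCre. Their genotype label reads Rx1flfl;Rx3fl/fl;DhhCre and omits Nf1, whereas the extraction protocol and the methods of the study give Nf1fl/fl for both groups. Both share the strain background C57BL/6-I129 and the Cre, and age and treatment are not given in the labels. The tissue label differs with the genotype, so tissue and genotype cannot be told apart, and the study's methods call the samples of both groups DRG/tumors. Sensory neuron markers ran against the tissue labels, with 1285 to 2627 CPM summed over 14 genes in the libraries labelled DRG and 6378 to 14382 CPM in those labelled neurofibroma (CPM are counts scaled to a common library total). DhhCre is directed at the SC lineage, so leukocytes, fibroblasts and neurons in these tissues are not meant to lose either gene.

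The libraries held 12439296 to 16682194 counts, of which the 66 genes made up 0.231 to 0.297% in the Nf1fl/fl;DhhCre libraries and 0.144 to 0.189% in the others. Runx1 stood at 131, 141 and 172 CPM in the Nf1fl/fl;DhhCre libraries, against 84.0, 78.9 and 185 CPM in the others. Labelled double knockout replicate 3 thus lay above every control. The log2 change of Runx1 was -0.44 (adjusted p = 0.370 with limma-voom), and -0.85 (adjusted p = 0.0290) without that replicate. Runx3 was at 19.9, 15.1 and 29.9 CPM against 13.5, 10.3 and 12.1 CPM, a log2 change of -0.79 ± 0.30 (SE). Its adjusted p was 0.104 with limma-voom, 0.0719 with edgeR's quasi-likelihood test and 0.0278 with DESeq2. Nf1 was at 302 ± 30.8 against 290 ± 44.5 CPM (SD, n = 3 each). Reads outside a deleted exon, and reads from cells outside the SC lineage, would still be counted. Which exons are floxed was not used here. These bulk levels therefore cannot show whether the SCs of a library lost the genes. The group is therefore called labelled double knockout throughout. Skeletal muscle transcripts were high in replicate 2 of both groups, at 2071 CPM summed over 6 markers in the control and 10731 CPM in the labelled double knockout, against 4.23 to 57.6 CPM elsewhere. Counts are given below with and without these libraries. In addition, 1 labelled double knockout library is labelled with a sequencing run of its own, and the mouse numbers do not settle which one. The labels give no sex, and by their Xist and Ddx3y counts 2 of 3 control mice and 1 of 3 labelled double knockout mice were female.

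Cytokine receptors let a cell sense signals from its neighbours. Receptors of the IL-1 and IL-18 family signal through the adaptor MyD88, whereas interleukin receptors of class I and class II, the interferon receptors among them, pair a ligand-binding chain with shared chains and signal through Janus kinases. TNF receptors bind trimeric ligands, and those with a death domain can start cell death. Many of these receptors are carried by macrophages and lymphocytes, which infiltrate neurofibromas, and some by SCs, fibroblasts or the sensory neurons of the DRG. In bulk RNA, fewer cells that express a receptor and less of its RNA per cell cannot be told apart.

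RUNX proteins bind a core of TGTGG, which reads CCACA on the other strand. The 250 bases before the transcription start were taken from RefSeq (GRCm38.p6), which had an entry for 55 of the 66 genes. The 4 sequences below belong to receptors that were lower in the labelled double knockout libraries and touch no annotated exon. Those of Il21r, Il1rl2 and Il13ra1 are shown because they hold the core, in capitals, and that of Tnfrsf1b, the receptor with the smallest adjusted p, because it holds none, as did the other such windows, of Ifngr1, Il18rap and Tnfrsf23.
Il21r: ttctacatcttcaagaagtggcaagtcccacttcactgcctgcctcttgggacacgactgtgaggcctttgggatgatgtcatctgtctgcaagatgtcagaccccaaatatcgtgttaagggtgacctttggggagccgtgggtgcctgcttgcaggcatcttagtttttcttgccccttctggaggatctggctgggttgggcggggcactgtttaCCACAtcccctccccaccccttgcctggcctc
Il1rl2: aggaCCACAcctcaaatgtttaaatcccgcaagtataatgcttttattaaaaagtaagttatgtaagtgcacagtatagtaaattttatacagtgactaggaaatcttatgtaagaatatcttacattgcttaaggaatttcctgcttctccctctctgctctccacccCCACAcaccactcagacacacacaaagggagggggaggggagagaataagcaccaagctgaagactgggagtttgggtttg
Il13ra1: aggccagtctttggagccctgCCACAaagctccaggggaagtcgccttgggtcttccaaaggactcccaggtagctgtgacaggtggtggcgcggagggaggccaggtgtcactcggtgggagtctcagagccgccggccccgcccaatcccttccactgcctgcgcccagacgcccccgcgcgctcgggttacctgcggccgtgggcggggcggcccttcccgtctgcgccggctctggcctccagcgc
Tnfrsf1b: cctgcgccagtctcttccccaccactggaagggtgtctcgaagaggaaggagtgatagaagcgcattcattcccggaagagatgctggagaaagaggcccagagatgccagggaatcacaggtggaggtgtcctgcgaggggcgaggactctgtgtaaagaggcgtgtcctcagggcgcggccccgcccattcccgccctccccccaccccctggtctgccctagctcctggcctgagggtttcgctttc
All are written 5′ to 3′ on the strand of the gene and end at the base before the start. They lie at chr7:125603179-125603428 for Il21r, chr1:40324339-40324588 for Il1rl2, chrX:36111858-36112107 for Il13ra1, all on the plus strand, and chr4:145246871-145247120 on the minus strand for Tnfrsf1b. The core starts 32 bases before the start of Il21r, 229 before that of Il13ra1, and 246 and 81 before that of Il1rl2. It was found on either strand in 33 of the 55 genes with an entry, or 60.0%, against 53.0% of 27025 genes with a promoter entry. Among the receptors lower in the labelled double knockout libraries it was found in 6 of 13, or 46.2%, and among those tested without a call in 17 of 28, or 60.7%. A match of these letters is a description of the sequence and not a binding site, and a window without them says nothing of RUNX binding.

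The receptors were mostly lower in the labelled double knockout libraries. With limma-voom, an adjusted p-value (false discovery rate, FDR) under 0.05 and a change over 2-fold, 15 of the 51 tested receptor genes were down-regulated and 1, Il31ra, was up-regulated. Over all 15652 genes tested, 5.36% were down-regulated and 8.03% up-regulated by the same thresholds. The median log2 fold change was -0.84 over the receptor genes against 0.02 over all genes, and 43 of the 51 had a negative value. Without the fold threshold, 19 were lower and 2 higher, against 8.22% and 11.1% of all genes. In 29 receptor genes every labelled double knockout library lay below every Nf1fl/fl;DhhCre library and in 3, Il31ra, Tnfrsf21 and Il17rb, above, against 20.5% and 21.8% of all genes. All 16 differentially expressed genes (DEGs) were among those without overlap.

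How many receptors passed depended on single libraries. Without the labelled double knockout replicate 3, whose Runx1 lay above every control, 7 were down-regulated and 2 up-regulated, and without replicate 2 of that group 6 and 1. Leaving out Nf1fl/fl;DhhCre replicate 1 left 4 and 0, and leaving out replicate 3 left 9 and 0. Without Nf1fl/fl;DhhCre replicate 2 the counts were 19 and 1, and without labelled double knockout replicate 1 they were 13 and 0. With both libraries that held muscle transcripts left out, 12 were down-regulated and 1 was up-regulated. Calls over all genes moved too. The share of all genes tested that were down-regulated, 5.36% with all 6 libraries, was 1.13%, 6.45% and 3.12% without Nf1fl/fl;DhhCre replicates 1, 2 and 3, 3.59%, 2.04% and 2.96% without labelled double knockout replicates 1, 2 and 3, and 4.56% without the libraries with muscle transcripts. Up-regulated genes, 1257 with all 6 libraries, numbered 181, 1257 and 535 without Nf1fl/fl;DhhCre replicates 1, 2 and 3, 1304, 692 and 1122 without labelled double knockout replicates 1, 2 and 3, and 1033 without the libraries with muscle transcripts. The median over the receptors stayed between -0.93 and -0.80 in these 7 fits. With sex as a second term, 14 were down-regulated (4.93% of all genes) and 0 up-regulated (1053 over all genes), with calls lost for Il31ra (adjusted p = 0.0683), Il1r2 (0.0544), Il1rl2 (0.0614) and Ifngr1 (log2 fold change -0.98) and gained for Il2rg (0.0335) and Il1rn (0.0220), while the X-linked Il13ra1 stayed a DEG. Tnfrsf26 and Tnfrsf1b passed in all 6 fits that leave out 1 library.

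**Figure D1:**
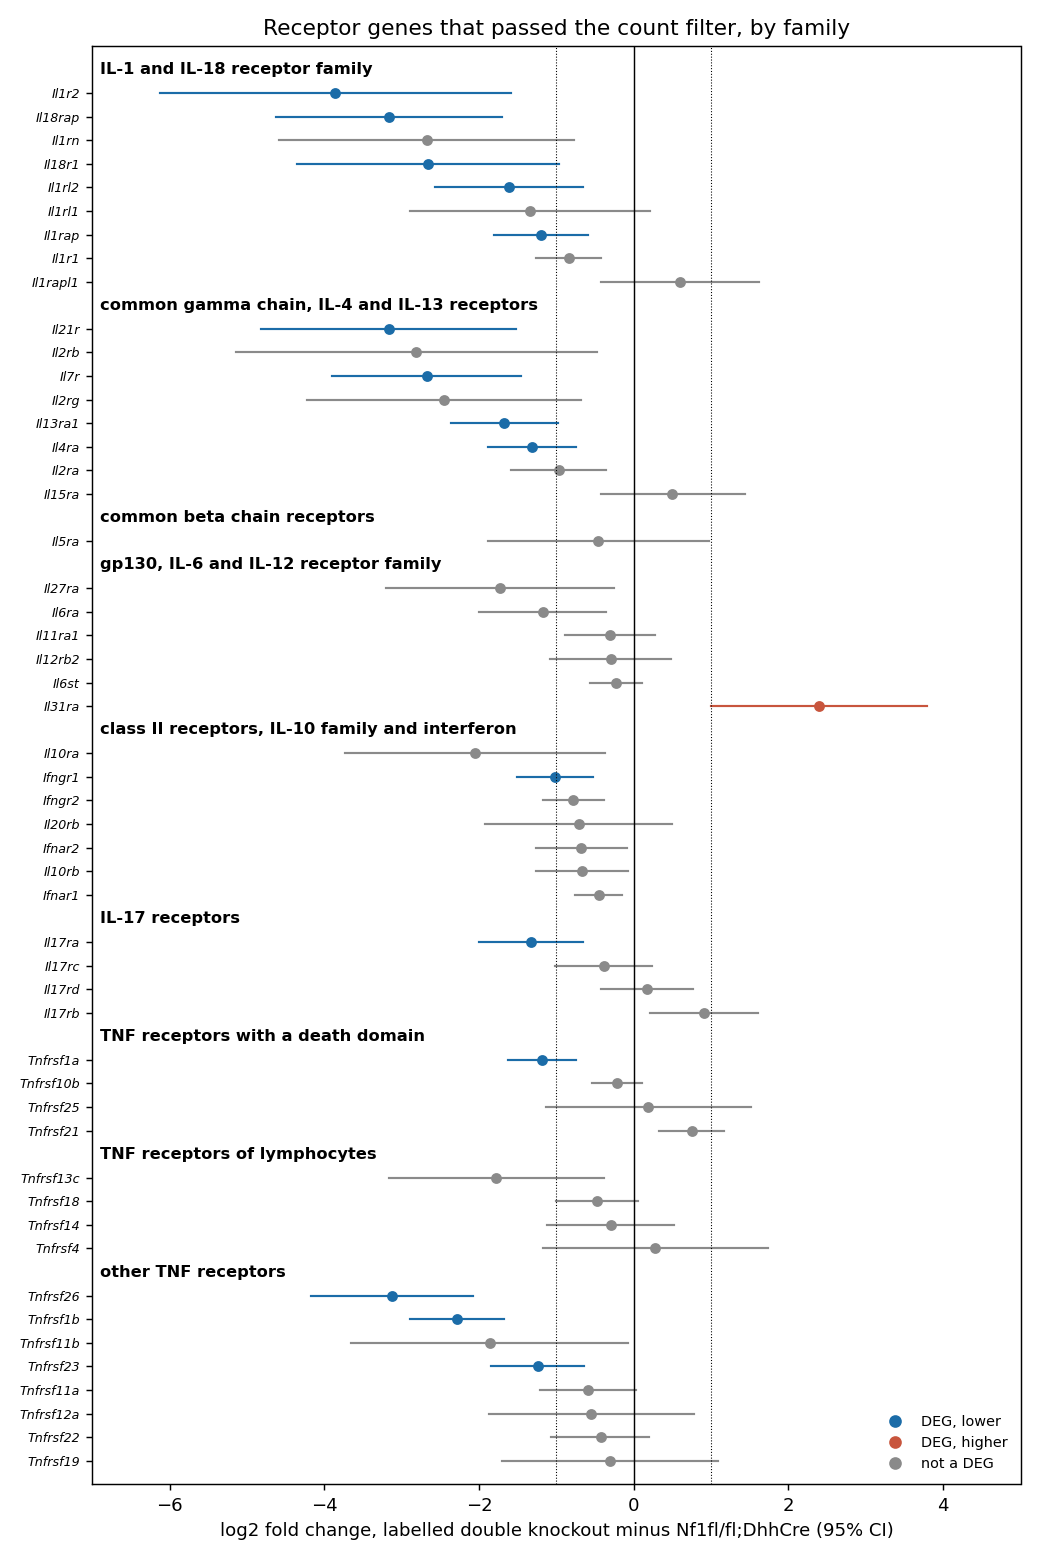
Log2 fold change (labelled double knockout minus Nf1fl/fl;DhhCre) with its 95% confidence interval for each of the 51 tested receptor genes, by family. Solid line, no change; dotted lines, 2-fold. The 15 down-regulated genes are blue and Il31ra, the 1 up-regulated gene, is red, and 43 of the 51 points lie left of 0.

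With limma-voom and all 6 libraries, the IL-1 and IL-18 receptor family had the most down-regulated members, 5 of 9 tested. Its median log2 fold change was -1.61. By adjusted p under 0.05 alone, the quasi-likelihood test passed 6 members here and 6 of the common gamma chain group described below, and DESeq2 8 and 7. Values are given in the order of replicates 1, 2 and 3, Nf1fl/fl;DhhCre first. Il18rap, the signalling chain of the IL-18 receptor, was at 10.1, 10.6 and 14.2 CPM against 2.23, 0.329 and 2.18 CPM, so the groups lay far apart. It fell by 3.17 ± 0.62 on the log2 scale (adjusted p = 0.0179), and missed the threshold only without Nf1fl/fl;DhhCre replicate 1 (adjusted p = 0.0569). Il18r1, the chain that binds IL-18, was at 17.1, 6.08 and 18.5 CPM against 2.15, 1.97 and 1.65 CPM. All 3 labelled double knockout values were below the lowest control, replicate 2, and the change was -2.66 ± 0.72 (adjusted p = 0.0425). Its call was lost when any library but Nf1fl/fl;DhhCre replicate 2 was left out, with adjusted p-values from 0.0795 without Nf1fl/fl;DhhCre replicate 3 to 0.130 without labelled double knockout replicate 3. Both chains of the IL-18 receptor were thus lower, as was Il18 itself among the ligands.

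Il1rap, Il1rl2 and Il1r1, chains of the receptors for IL-1 and IL-36, had smaller log2 changes, a difference that was not tested. Il1rap, the chain shared by the receptors for IL-1, IL-33 and IL-36, was at 187, 119 and 147 CPM against 89.4, 47.0 and 63.0 CPM, without overlap. The fold was 2.30 lower (log2 fold change -1.20 ± 0.26, adjusted p = 0.0227). Leaving out 1 library other than Nf1fl/fl;DhhCre replicate 2 or labelled double knockout replicate 1 lost this call, with adjusted p from 0.0583 to 0.0771. Il1rl2, which binds IL-36, was at 20.4, 20.6 and 11.2 CPM against 8.85, 3.70 and 4.95 CPM, where the lowest control and the highest labelled double knockout value were close. It changed by -1.61 ± 0.41 (adjusted p = 0.0347), with adjusted p from 0.0620 to 0.109 in the 4 fits without Nf1fl/fl;DhhCre replicate 1 or 2 or labelled double knockout replicate 2 or 3, and 0.137 without the libraries with muscle transcripts. Il1r1, the signalling receptor for IL-1, was at 101, 120 and 85.8 CPM against 65.4, 57.1 and 48.4 CPM. These groups did not overlap either, but the change of -0.84 ± 0.18 (adjusted p = 0.0219) was under 2-fold.

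Il1r2, a decoy that binds IL-1 without signalling, was nearly absent from the labelled double knockout libraries. It had 1.66, 1.01 and 1.22 CPM in the Nf1fl/fl;DhhCre libraries against 0, 0 and 0.396 CPM, and 3 counts correspond to 0.179 to 0.247 CPM at these depths. The only labelled double knockout library with reads, replicate 3, had 6 counts, so the fitted change of -3.86 ± 0.97 (adjusted p = 0.0342) depends on how zeros are treated. With edgeR's quasi-likelihood test the adjusted p was 0.0783, without the libraries with muscle transcripts it was 0.119, and it ranged from 0.0840 to 0.170 without Nf1fl/fl;DhhCre replicate 1 or 3 or labelled double knockout replicate 1 or 2. Il1rn, the antagonist of IL-1 receptors, was at 16.2, 5.42 and 20.3 CPM against 1.75, 1.81 and 1.91 CPM. The groups did not overlap and the labelled double knockout values were close together, but the wide control values left a change of -2.68 ± 0.82 above the threshold (adjusted p = 0.0591). It passed with edgeR's quasi-likelihood test (adjusted p = 0.0138), DESeq2 (3.98e-07), sample quality weights (0.0271), and without the libraries with muscle transcripts (0.0176). Il1rl1, the IL-33 receptor, overlapped between groups at 6.67 to 26.6 against 3.04 to 10.1 CPM (log2 fold change -1.34 ± 0.66, adjusted p = 0.193). It passed with DESeq2 (adjusted p = 0.0465) and without Nf1fl/fl;DhhCre replicate 2 (0.0330), but not with the quasi-likelihood test (0.132). Il1rapl1, which is known for organizing synapses, had the only positive value of this family, 0.60 ± 0.44 (adjusted p = 0.372), and its relative Il1rapl2 had 0 counts in 2 libraries and was not tested.

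The common gamma chain receptors, taken with those for IL-4 and IL-13, came next, with 4 of 8 tested members down-regulated and a median of -2.06. Il4ra, which binds IL-4 and is shared by the IL-4 and IL-13 receptors, was at 27.3, 29.7 and 42.3 CPM against 12.8, 11.0 and 15.3 CPM. Every labelled double knockout library held less than every control. The fold was 2.49 lower (log2 fold change -1.32 ± 0.24, 95% confidence interval -1.89 to -0.75, adjusted p = 0.0154), and the call was lost only without labelled double knockout replicate 2 (adjusted p = 0.0524). Its partner Il13ra1, which together with Il4ra forms a receptor for both cytokines, was at 39.5, 27.9 and 50.9 CPM against 15.4, 10.7 and 10.4 CPM. It was 3.20-fold lower (log2 fold change -1.68 ± 0.30, adjusted p = 0.0144; 0.0589 without Nf1fl/fl;DhhCre replicate 1). Both chains of this receptor were thus lower, whereas Il13ra2, a decoy for IL-13, was counted at most 12 times in a library and was not tested.

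Il21r and Il7r bind lymphocyte cytokines. Il21r was at 13, 9.65 and 26.9 CPM against 1.67, 1.23 and 1.98 CPM, 9.0-fold lower (log2 fold change -3.17 ± 0.70, adjusted p = 0.0245). The control values varied, with replicate 3 highest, and the labelled double knockout values were all near 2 CPM or below. Il7r was at 7.42, 10.7 and 15.1 CPM against 2.39, 0.987 and 1.78 CPM, with no overlap and a change of -2.68 ± 0.52 (adjusted p = 0.0174). The adjusted p of Il21r rose to between 0.0670 and 0.0827 without Nf1fl/fl;DhhCre replicate 1 or any 1 labelled double knockout library. That of Il7r rose to 0.0571 without labelled double knockout replicate 2, 0.0544 without replicate 3 and 0.0583 without the libraries with muscle transcripts.

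The chains shared among these receptors, Il2rg and Il2rb, gave large but uncertain values. Il2rg, the common gamma chain itself, was at 36.1, 16.1 and 73.4 CPM against 9.80, 8.72 and 3.30 CPM. The groups did not overlap, yet the controls differed widely among themselves and the change of -2.45 ± 0.76 did not pass (adjusted p = 0.0611 with limma-voom, 0.0316 with edgeR's quasi-likelihood test). Its sequence is shared in part, with 27.5% of its 50-base stretches also in the gene model Gm20489, so its count may be split. Il2ra, another chain of the IL-2 receptor, was at 28.0, 30.3 and 41.4 CPM against 23.6, 13.2 and 15 CPM. Its change of -0.97 ± 0.26 (adjusted p = 0.0408) was just under 2-fold. Il2rb, which serves IL-2 and IL-15, was lower in every labelled double knockout library at 0.0797 to 1.85 against 2.91 to 7.70 CPM. Its log2 fold change was -2.81 ± 0.99. The adjusted p was 0.0885 with limma-voom, 0.0987 with the quasi-likelihood test and 0.0246 with DESeq2. Il15ra, which presents IL-15, was the exception in this family. It stood at 14.6, 16.4 and 13.1 CPM in the controls against 26.7, 32.5 and 11.2 CPM, so labelled double knockout replicates 1 and 2 were above all controls and replicate 3 below them. Its change was 0.50 ± 0.40 (adjusted p = 0.411), and 1.0 (adjusted p = 0.0290) without replicate 3.

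**Figure D2:**
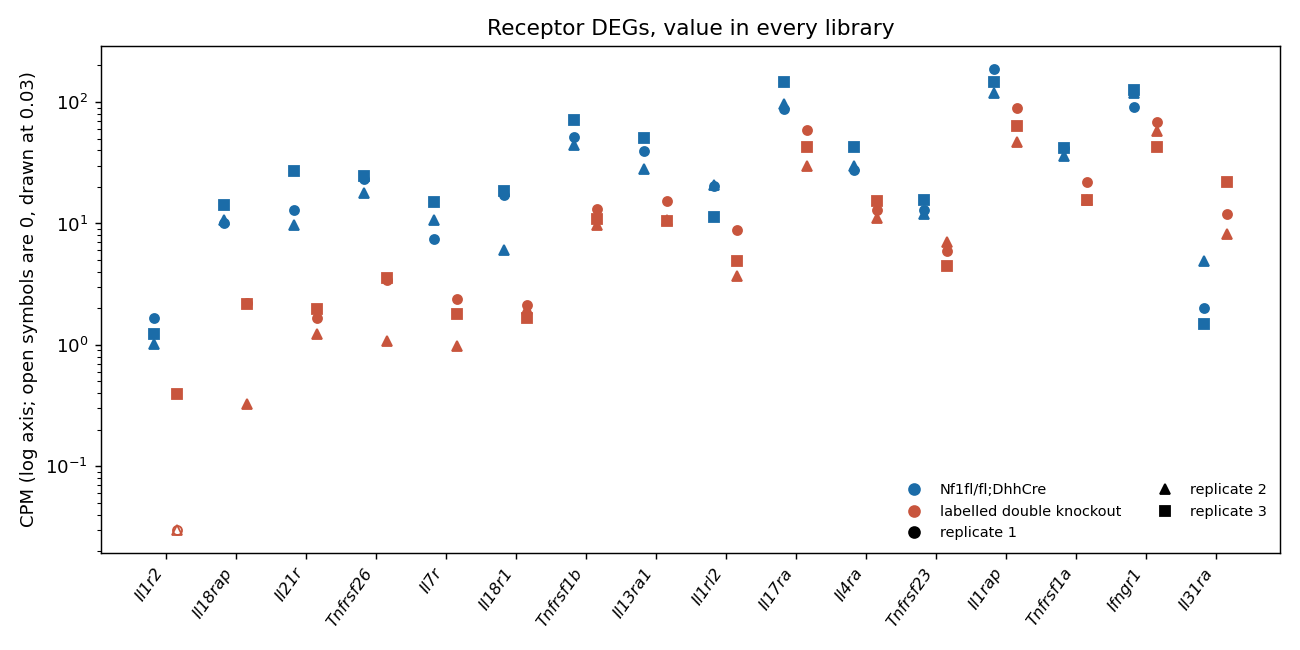
CPM (log axis) of the 16 receptor DEGs in every library, ordered by log2 fold change. Blue, Nf1fl/fl;DhhCre; red, labelled double knockout; the symbol gives the replicate. The groups do not overlap for any of the 16 genes, and only Il31ra, at the right, is higher in the labelled double knockout libraries.

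The gp130, IL-6 and IL-12 receptor family had no down-regulated member among 6 tested with limma-voom, and a median of -0.30. By unadjusted p under 0.05, 3 of the 6 differed, Il6ra and Il27ra lower and Il31ra higher, as they did by adjusted p with DESeq2, whereas the quasi-likelihood test passed 1, Il31ra. Il6st, which encodes gp130, the signalling chain shared by the IL-6 family, was the most abundant receptor per length in both groups, with 79.3 ± 6.16 against 68.0 ± 10.9 CPM per kilobase of exon (SD, n = 3 each). Its libraries overlapped at 848, 833 and 958 CPM against 774, 625 and 864 CPM, and the 95% confidence interval of its log2 fold change ran from -0.57 to 0.11. Il6ra, which binds IL-6, was at 38.1, 55.8 and 45.9 CPM against 37.3, 13.3 and 17.2 CPM. Labelled double knockout replicate 1 lay just under the lowest control. The change of -1.18 ± 0.35 missed the threshold (adjusted p = 0.0548), which it passed without labelled double knockout replicate 1 (adjusted p = 0.0184).

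Il31ra, which pairs with Osmr to bind IL-31, a cytokine of itch, was the 1 up-regulated receptor. It was at 2.01, 4.89 and 1.48 CPM against 12, 8.22 and 21.9 CPM, without overlap and with replicate 3 the highest of the labelled double knockout libraries. The fold was 5.27 higher (log2 fold change 2.40 ± 0.60, adjusted p = 0.0331). The call was lost without Nf1fl/fl;DhhCre replicate 1 (adjusted p = 0.103) or 3 (adjusted p = 0.0913) and without labelled double knockout replicate 1 (adjusted p = 0.0511). Osmr, the partner chain, was lower, at 231, 244 and 188 CPM against 150, 79.6 and 133 CPM, without overlap and by less than 2-fold (log2 fold change -0.91 ± 0.24, adjusted p = 0.0393). Il31ra is known from itch-sensing DRG neurons, and sensory neuron markers moved the same way. All 14 of them were up-regulated, with summed levels of 1285 to 2627 CPM in the Nf1fl/fl;DhhCre libraries and 6378 to 14382 CPM in the others, and their part in the result for Il31ra was not tested. Of the rest, Il11ra1, Il12rb2 and Il27ra overlapped between groups (log2 fold change -0.31, -0.30 and -1.73, adjusted p = 0.424, 0.559 and 0.0944), of which Il27ra passed with DESeq2 (adjusted p = 0.0248) and without Nf1fl/fl;DhhCre replicate 2 (0.0419). Il12rb1 and Il23r were not tested, and Il11ra2 had no counts, but all of its 50-base stretches also occur in other genes.

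Among the class II receptors, 1 of 7 tested was down-regulated, all 7 values were negative, and the median was -0.71. Ifngr1, the ligand-binding chain for interferon gamma, was at 91.7, 118 and 125 CPM against 67.8, 57.3 and 42.4 CPM. The groups were apart, but the change of -1.02 ± 0.21 (adjusted p = 0.0197) was barely over 2-fold. It stayed a DEG in only 1 of the 6 fits that leave out a library, that without labelled double knockout replicate 1. The change was under 2-fold without Nf1fl/fl;DhhCre replicate 2 (-0.93) or 3 (-0.90), without labelled double knockout replicate 3 (-0.82), and with sample quality weights (-0.84), and did not exceed 2-fold with the quasi-likelihood test (-1.0). The adjusted p was 0.0566 without Nf1fl/fl;DhhCre replicate 1, 0.0550 without labelled double knockout replicate 2 and 0.0756 without the libraries with muscle transcripts. Its partner Ifngr2 was at 49.0, 45.5 and 63.6 CPM against 30.8, 30.1 and 29.9 CPM, -0.78 ± 0.17 (adjusted p = 0.0231).

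The receptor for type I interferons was high in both groups. Ifnar1 was at 158, 136 and 163 CPM against 115, 101 and 115 CPM, without overlap. Its change of -0.45 ± 0.13 passed the FDR threshold but not the fold (adjusted p = 0.0485). Leaving out any 1 library but Nf1fl/fl;DhhCre replicate 2 took the adjusted p to between 0.0806 and 0.153. It was also above the threshold without the libraries with muscle transcripts (0.0982), with no filter on low counts (0.0550) and with sex as a term (0.0819). Ifnar2, the other chain, was at 122, 100 and 193 CPM against 93.8, 84.5 and 73.7 CPM (log2 fold change -0.68 ± 0.25, adjusted p = 0.101). Il10ra, which binds IL-10, was lower in every labelled double knockout library, at 2.71 to 5.22 against 8.82 to 38.2 CPM (log2 fold change -2.05 ± 0.72, adjusted p = 0.0861). It passed with edgeR's quasi-likelihood test (adjusted p = 0.0312), DESeq2 (2.47e-04) and sample quality weights (0.0487). The shared chain Il10rb and Il20rb had values of -0.67 ± 0.26 and -0.71 ± 0.52 and did not pass with limma-voom (adjusted p = 0.108 and 0.372). With DESeq2 the adjusted p of Il10rb was 0.0343 and that of Ifnar2 0.0363. With the quasi-likelihood test they were 0.0731 and 0.0845. Ifnar2 and Il10rb each share part of their sequence, 7.89% and 13.9% of 50-base stretches, with the model Gm21970. Il20ra had no counts in any library, and Il22ra1 and Il22ra2 had 0 counts in at least 1 library of each group and were not tested.

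Of the IL-17 receptors, 1 of 4 tested was down-regulated. Il17ra, the chain that most IL-17 receptors share, was at 87.4, 95.4 and 145 CPM against 58.4, 30.0 and 42.9 CPM. No labelled double knockout library reached the lowest control, and the fold was 2.52 lower (log2 fold change -1.33 ± 0.28, adjusted p = 0.0221). This call was lost without Nf1fl/fl;DhhCre replicate 1 or 3, without labelled double knockout replicate 2 or 3, and without the libraries with muscle transcripts (adjusted p = 0.0552 to 0.0637). Il17rd, known as an inhibitor of growth factor signalling, overlapped at 17.3, 24.5 and 17.4 CPM against 24.3, 15.8 and 26.9 CPM (log2 fold change 0.17 ± 0.26, adjusted p = 0.680). Il17rb, which binds IL-25, was higher in every labelled double knockout library, at 6.38, 6.26 and 3.34 CPM against 8.85, 10.5 and 9.57 CPM. Its change of 0.91 ± 0.30 did not pass with limma-voom (adjusted p = 0.0734). The adjusted p was 0.0445 with DESeq2 and 0.0900 with the quasi-likelihood test. Il17rc had a value of -0.39 (adjusted p = 0.338). Il17re was too low to be tested, with counts of 2, 0 and 2 against 13, 10 and 7.

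The TNF receptors with a death domain did not move together. Tnfrsf1a, the main signalling receptor for TNF, was at 42.1, 35.7 and 41.8 CPM against 21.9, 15.5 and 15.6 CPM. The replicates of each group were close and the groups far apart, 2.28-fold lower (log2 fold change -1.19 ± 0.19, adjusted p = 0.0116; 0.0544 without Nf1fl/fl;DhhCre replicate 1). Tnfrsf21, known as death receptor 6, was at 105, 85.6 and 82.3 CPM against 129, 141 and 190 CPM, higher in every labelled double knockout library. Its change of 0.75 ± 0.18 passed the FDR threshold but was under 2-fold (adjusted p = 0.0317). The adjusted p was 0.0579 without labelled double knockout replicate 3 and 0.0788 without the libraries with muscle transcripts. Tnfrsf10b, a receptor for the ligand TRAIL, was at 85.2, 77.0 and 73.5 CPM against 72.3, 59.5 and 71.2 CPM, and the 95% confidence interval of its log2 fold change ran from -0.54 to 0.11. Tnfrsf25 had fewer than 4 CPM in every library and a value of 0.19 ± 0.56 (adjusted p = 0.844).

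The remaining TNF receptors included the receptor call with the smallest adjusted p. Tnfrsf1b, the other receptor for TNF, was at 51.6, 44.4 and 71.6 CPM against 13.1, 9.79 and 10.9 CPM. The lowest control was over 3 times the highest labelled double knockout value, and the fold was 4.87 lower (log2 fold change -2.29 ± 0.26, adjusted p = 0.00764). Tnfrsf26, a gene beside the mouse TRAIL decoy receptors, was at 23.2, 17.8 and 24.8 CPM against 3.43, 1.07 and 3.56 CPM. It was 8.76-fold lower (log2 fold change -3.13 ± 0.45, adjusted p = 0.0100), and both genes passed in all 6 fits that leave out a library. Tnfrsf23, which encodes such a decoy, was at 12.8, 11.9 and 15.6 CPM against 5.90, 6.99 and 4.49 CPM, a change of -1.24 ± 0.25 (adjusted p = 0.020). Its adjusted p rose to between 0.0541 and 0.0701 without Nf1fl/fl;DhhCre replicate 1 or 3 or labelled double knockout replicate 1 or 3. Of the 50-base stretches of Tnfrsf23, 18% also occur in Tnfrsf22, so its count may be split. Tnfrsf22, another decoy, of which 27.4% of these stretches occur in other genes, Tnfrsf23 among them, overlapped between groups (log2 fold change -0.43 ± 0.27, adjusted p = 0.299).

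Tnfrsf11a, the receptor RANK, was at 58.1, 50.8 and 76.8 CPM against 33.9, 32.5 and 58.2 CPM, where labelled double knockout replicate 3 lay among the controls (log2 fold change -0.59 ± 0.26, adjusted p = 0.159). Tnfrsf11b, a soluble decoy for the RANK ligand, Tnfrsf12a and Tnfrsf19 had values of -1.86, -0.55 and -0.31 and did not pass (adjusted p = 0.130, 0.531 and 0.750). Of the TNF receptors known from lymphocytes, none of 4 tested passed with limma-voom, and 1 had an unadjusted p under 0.05 and passed with the quasi-likelihood test and DESeq2. That gene was Tnfrsf13c, the receptor for the B cell survival factor BAFF, at 9.50, 6.79 and 19.4 CPM against 2.71, 1.89 and 5.22 CPM. Its groups did not overlap (log2 fold change -1.78 ± 0.59, adjusted p = 0.0751 with limma-voom, 0.0475 with edgeR's quasi-likelihood test and 0.00315 with DESeq2). Tnfrsf18, a costimulatory receptor of T cells, was at 22.3, 20.7 and 15.9 CPM against 17.5, 11.2 and 13.9 CPM (log2 fold change -0.48 ± 0.23, adjusted p = 0.187). Tnfrsf14 and Tnfrsf4 had values of -0.30 and 0.28, and that of Tnfrsf4 turned to -0.03 with the quasi-likelihood test. Tnfrsf8, Tnfrsf9, Tnfrsf13b and Tnfrsf17 were too low to be tested.

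Of the common beta chain receptors, Il5ra overlapped between groups at 7.01, 1.61 and 3.85 CPM against 2.07, 2.06 and 3.30 CPM (log2 fold change -0.46 ± 0.61, adjusted p = 0.629). Il3ra was not tested, nor was Il9r of the common gamma chain receptors. In all, the 15 receptor genes that were not tested had at most 26 counts in a library, and 2 of them had 0 in every library.

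**Figure D3:**
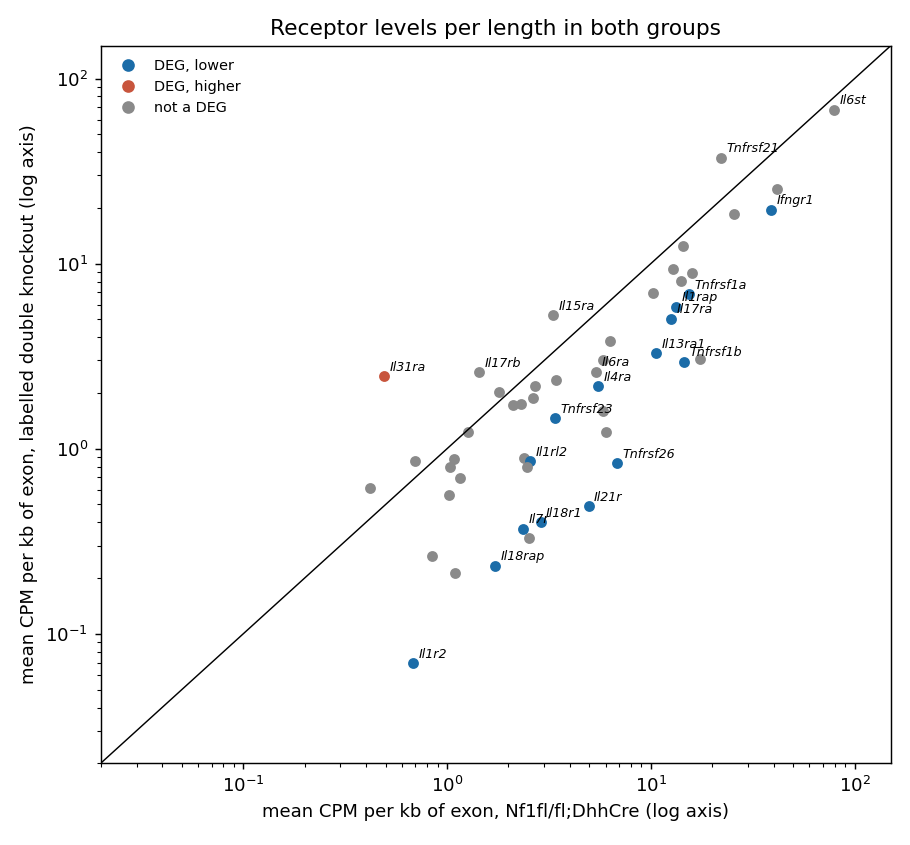
Mean CPM per kilobase of exon of the 51 tested receptor genes in the Nf1fl/fl;DhhCre (x) and labelled double knockout (y) libraries, both on log axes. The line marks equal levels. Il6st is highest in both groups, Tnfrsf21 and Il31ra lie above the line, and most genes lie below it, the down-regulated DEGs (blue) at both low and high levels.

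The down-regulated receptors spanned a wide range of levels. Per kilobase of exon, 16 receptors were above 10 CPM in the Nf1fl/fl;DhhCre libraries and 6 in the labelled double knockout libraries. After Il6st, the controls had most Ifnar2 (41.6 ± 14.6), Ifngr1 (39.1 ± 6.11), Ifnar1 (25.6 ± 2.43) and Tnfrsf21 (22.2 ± 3.02 CPM per kilobase, SD, n = 3 each). In this order the control libraries of Ifnar2 and Ifngr1 overlapped, as did those of Ifnar1 and Tnfrsf21. In the labelled double knockout libraries Tnfrsf21 followed Il6st at 37.3 ± 7.77, above Ifnar2 at 25.2 ± 3.01 and Ifngr1 at 19.6 ± 4.49 CPM per kilobase. Il4ra was at 5.51 ± 1.34 in the controls and 2.17 ± 0.360 CPM per kilobase in the labelled double knockout libraries.

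Many of the receptor genes neighbour each other in the genome. With a gap of up to 200 kb, 30 of the 66 lie in 11 clusters (GENCODE M21, mm10). The largest, at chr1:40074079-40551705, holds Il1r2, Il1r1, Il1rl2, Il1rl1, Il18r1 and Il18rap on the plus strand, and all 6 had negative values, 4 of them DEGs. Il4ra and Il21r, at chr7:125552120-125633570, were both down-regulated. The interferon and IL-10 receptor genes at chr16:91372783-91565623, Ifnar2, Il10rb, Ifnar1 and Ifngr2, all had values between -0.78 and -0.45 and none was a DEG. In 3 places, the fitted values of neighbours differed in sign. Il6st and Il31ra, at chr13:112464070-112594360, had values of -0.23 and 2.40, Il2ra and Il15ra, at chr2:11642807-11734317, of -0.97 and 0.50, and Tnfrsf4 and Tnfrsf18, at chr4:156013843-156028895, of 0.28 and -0.48. The sign for Tnfrsf4 depended on the tool, turning negative with the quasi-likelihood test and DESeq2. Its mean was 1.73 CPM in the Nf1fl/fl;DhhCre libraries and 1.68 CPM in the labelled double knockout libraries. The difference between the neighbours in these 3 places was not tested.

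**Figure D4:**
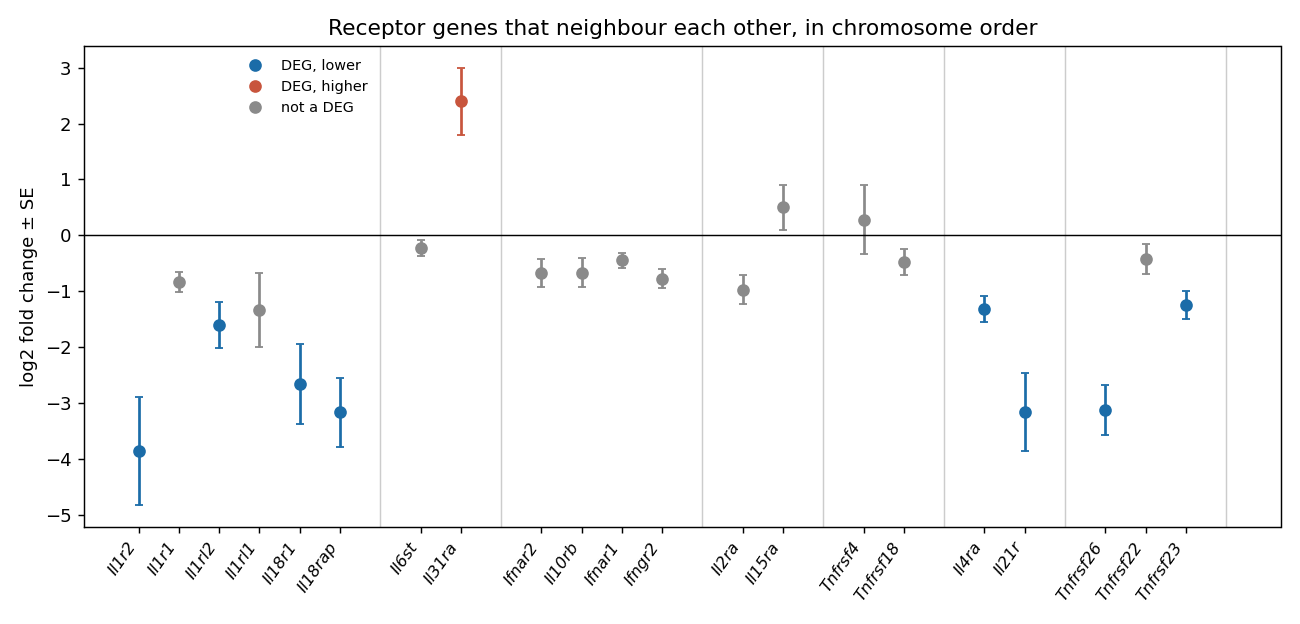
Log2 fold change ± SE (labelled double knockout minus Nf1fl/fl;DhhCre) of tested receptor genes that lie within 200 kb of each other, in chromosome order, with a grey line between clusters. The 6 genes of the IL-1 receptor cluster, at the left, are all below 0, and Il31ra is the only up-regulated gene shown.

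Few of the ligands were abundant enough to be tested. Of 32 interleukin ligands, 6 were tested and 3 were down-regulated, against 5.36% of all genes. Il33, an alarmin released from damaged cells, was at 140, 112 and 115 CPM against 68.1, 45.0 and 45.0 CPM (log2 fold change -1.24 ± 0.19, adjusted p = 0.0115; 0.0541 without Nf1fl/fl;DhhCre replicate 1). Il18 had values of 9.29 to 14.2 CPM against 7.09, 3.62 and 4.36 CPM (log2 fold change -1.20 ± 0.33, adjusted p = 0.0431). It stayed a DEG in none of the fits that leave out a library (adjusted p = 0.0520 without labelled double knockout replicate 1 to 0.136 without replicate 2). Without the libraries with muscle transcripts its change was -0.81 (adjusted p = 0.193). Il15 was at 10.2, 9.53 and 12.8 CPM against 5.18, 4.44 and 5.55 CPM (log2 fold change -1.08 ± 0.25, adjusted p = 0.0266), and its call was kept only without Nf1fl/fl;DhhCre replicate 2, with adjusted p from 0.0580 to 0.0889 otherwise and 0.0799 without the libraries with muscle transcripts. Il1b, at 9.43, 2.44 and 20.1 CPM against 0.398, 1.07 and 1.32 CPM, did not pass with limma-voom (log2 fold change -3.10 ± 1.39, adjusted p = 0.161). Its adjusted p was 0.0276 with edgeR's quasi-likelihood test and 4.54e-05 with DESeq2. Of 9 TNF family ligands tested, 2 were down-regulated, against 5.36% of all genes. They were Tnfsf8 (-3.32 ± 0.77, adjusted p = 0.0277) and Tnfsf13b, the ligand BAFF (-2.72 ± 0.62, adjusted p = 0.0267). Tnfsf13b was at 4.65, 4.65 and 8.92 CPM against 1.28, 0.411 and 1.06 CPM. Both calls were lost without Nf1fl/fl;DhhCre replicate 1 or any 1 labelled double knockout library (adjusted p from 0.0661 to 0.0955), and that of Tnfsf13b also without the libraries with muscle transcripts (0.0640). Of 7 interferon genes, only Ifnk was tested, and its value of -0.06 ± 0.59 did not pass (adjusted p = 0.951).

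Related receptors with other names went both ways, with 3 of 17 tested down-regulated and 2 up-regulated, against 5.36% and 8.03% of all genes. Ngfr, the low-affinity neurotrophin receptor of the TNF receptor family, which SCs and sensory neurons carry, was at 115, 194 and 102 CPM against 256, 293 and 511 CPM (log2 fold change 1.36 ± 0.33, adjusted p = 0.0301). Lifr, a partner of gp130, was at 258, 354 and 242 CPM against 475, 504 and 763 CPM (log2 fold change 1.02 ± 0.22, adjusted p = 0.0240). Both were higher in every labelled double knockout library. Leaving out Nf1fl/fl;DhhCre replicate 1 or 3 or labelled double knockout replicate 2 lost both calls (adjusted p from 0.0522 to 0.0958), and without labelled double knockout replicate 3 Ngfr had an adjusted p of 0.0560 and Lifr a log2 fold change of 0.80. The down-regulated genes included Eda2r, a TNF receptor family member (-2.14 ± 0.20, adjusted p = 0.00598), and Csf2rb, the common beta chain (-1.52 ± 0.35, adjusted p = 0.0261). Eda2r was at 33.4, 29.6 and 32.5 CPM against 8.53, 7.57 and 5.94 CPM, with tight replicates in both groups, whereas the call of Csf2rb was lost without Nf1fl/fl;DhhCre replicate 1 or 3 or labelled double knockout replicate 2 or 3 (adjusted p from 0.0695 to 0.0898). Of the 19 kinases and adaptors that act just below these receptors, 1 was down-regulated, Myd88, against 5.36% of all genes. Their median log2 fold change was -0.66 against 0.02 over all genes, and 17 values were negative. By unadjusted p under 0.05 with limma-voom 8 differed, Tollip higher and the rest lower. By adjusted p under 0.05 alone, the quasi-likelihood test passed 3 and DESeq2 6. Myd88 was at 7.35, 6.43 and 9.62 CPM against 2.95, 4.11 and 3.43 CPM (log2 fold change -1.14 ± 0.30, adjusted p = 0.0388). Myd88 stayed a DEG only without Nf1fl/fl;DhhCre replicate 2, with adjusted p from 0.0907 to 0.115 in the other 5 fits and 0.0687 without the libraries with muscle transcripts. Ripk1, a kinase of the TNF receptor pathway, was lower by less than 2-fold (-0.67 ± 0.19, adjusted p = 0.0479). Its adjusted p was 0.0141 with DESeq2 and 0.0542 with the quasi-likelihood test. Without labelled double knockout replicate 3 it was 0.108, and without the libraries with muscle transcripts 0.123.

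Leukocyte and macrophage markers moved with the receptors. All 4 pan-leukocyte genes were down-regulated, with summed levels of 313 to 936 CPM in the Nf1fl/fl;DhhCre libraries and 42.1 to 98.7 CPM in the others, and so were 7 of 9 macrophage markers (552 to 1138 against 110 to 276 CPM). Of 5 NK cell markers 2 were down-regulated (14.1 to 25.3 against 1.43 to 2.05 CPM), with Klrd1, Klrb1c and Nkg7 each at 0 in 1 labelled double knockout library. None of 6 T cell markers was a DEG with limma-voom, although their sums did not overlap (13.2 to 49.8 against 5.22 to 7.97 CPM); 1 had an unadjusted p under 0.05, and 1 and 2 passed the adjusted p of the quasi-likelihood test and DESeq2. None of 4 B cell markers (2.77 to 12.4 against 3.83 to 5.26 CPM) or 6 muscle markers was called, and 0 had an unadjusted p under 0.05. None of 3 neutrophil, 7 mast cell or 5 endothelial markers was a DEG, with 1, 2 and 1 at an unadjusted p under 0.05 and 1, 0 and 0 past the adjusted p of either other tool. Fibroblast markers were lower, 4 of 6 by the DEG thresholds (9176 to 9843 against 3377 to 5600 CPM). Among SC markers only S100b, 1 of 7, was called, and it was higher (log2 fold change 1.52 ± 0.13, adjusted p = 0.00598), while the summed levels overlapped at 1274 to 1456 against 1248 to 1712 CPM. Of the 2 satellite glial markers, Fabp7 was up-regulated and Kcnj10 down-regulated. The part of these markers in the lower receptor levels was not tested.

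**Figure D5:**
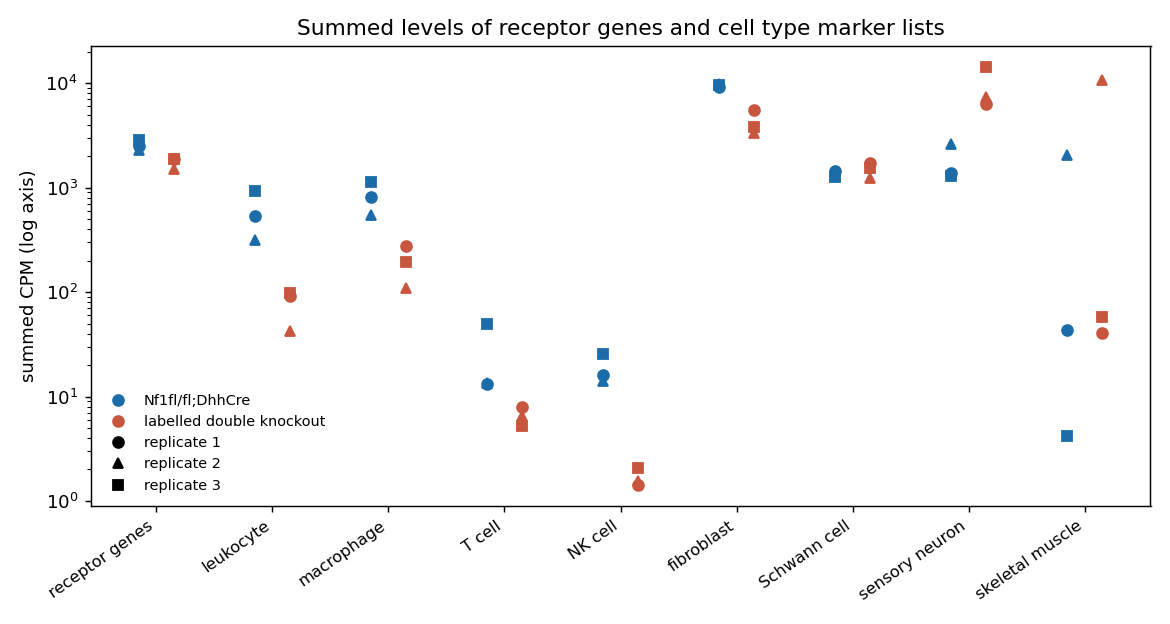
Summed CPM (log axis) of the 66 receptor genes and of 8 lists of marker genes in each of the 6 libraries; colour gives the group and the symbol the replicate. Receptor genes sum to 2297 to 2873 CPM in the Nf1fl/fl;DhhCre libraries and 1519 to 1883 CPM in the labelled double knockout libraries; leukocyte, macrophage and NK cell markers are lower and sensory neuron markers higher in the latter, and muscle markers are high in replicate 2 of both groups.

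Some counts may mix genes. Reads from Il1rap, Il17rb, Il27ra, Il12rb2 and Il11ra1 cannot be told from those of a gene that overlaps their exons on the other strand, because the counting was not stated to use strand. Of the 66 genes, 58 share at most 5% of their 50-base stretches with other genes.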

How the data were processed

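RNA was amplified with the Ovation RNA-Seq System and libraries were prepared with Nextera XT. The authors aligned reads to mm10 with TopHat and assigned them to genes with featureCounts, and the deposited values are raw counts per gene, without normalization. The submitters' processing notes also name CASAVA 1.4 and limma. The annotation, strand setting and treatment of multiply aligned reads are not given in the sources used here.

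Low genes were removed by edgeR 4.0.16 (filterByExpr, at least 10 counts and 15 in all), TMM factors scaled the libraries, and limma-voom (limma 3.58.1, R 4.3.3) compared the genotypes without covariates. Two-sided p-values were corrected over all 15652 genes with the Benjamini-Hochberg procedure. DEGs had an adjusted p under 0.05 and a change over 2-fold. CPM were computed from counts and TMM factors, and CPM per kilobase with exon lengths of GENCODE M21. The fit was tested on simulated data with known changes.

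Replicates of a group carry different mouse numbers, though the title of a library and its file do not always name the same mouse. They are numbered here in the order of the labels, which does not pair them, and differed by far more than sampling noise (chi-square per degree of freedom 22.8 to 142). Floors of 3 counts cover counting error only.

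Members and lists were chosen with earlier results of these data known. Named with values are every DEG among the receptors, Il4ra, the 2 members of each family with the highest mean count, and called genes of each list. Not every gene that meets this rule is reported here. Other genes were chosen after their values were seen. Also run were DESeq2 1.42.0, edgeR's quasi-likelihood test, DESeq2 size factors, library size only, other filters, sample quality weights, other thresholds and leaving out each library. Leaving out both libraries with muscle transcripts, and a fit with sex (inferred from Xist and Ddx3y) as a term, were added after the data were seen. Figures were drawn with matplotlib 3.10.9.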

Additional observations from a re-analysis of the deposited data

How the results depend on the processing

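No paired analysis was possible because the replicate numbers follow the order of the labels and pair no mice. Against 15 receptors down-regulated and 1 up-regulated, DESeq2 gave 23 down-regulated (7.90% of all genes tested, against 5.36%) and an unadjusted p with the same fold threshold also 23 (7.95%), while dropping the fold threshold gave 2 higher and adding sex as a term gave 0 higher. Leaving out 1 library gave 4 to 20 receptor DEGs in all, while DEGs over all genes ran from 2.26% to 14.3% against 13.4%, with 4 to 19 receptors lower and 0 to 2 higher, and 2 to 17 called ligands, related receptors and signalling genes against 11. The log2 change of Nf1 ranged from -0.18 to 0.04 in these fits, that of Il5ra from -1.01 to 0.04, Tnfrsf19 from -0.86 to 0.04 and Tnfrsf25 from -0.18 to 0.59. Tnfrsf4, at 0.28, turned to -0.03 with the quasi-likelihood test, -0.04 with DESeq2, -0.20 with sample quality weights and -0.00 without the libraries with muscle transcripts, and ranged from -0.11 to 0.90 with 1 library left out. The cause was not tested. Of the remaining values of single tested receptor genes under an alternative, 758 kept direction and side of the threshold, 55 lost and 44 gained a call. Ligands, related receptors and signalling genes are not in these counts. Scaling by library size alone moved the median of all genes from 0.02 to -0.06 and gave 17 down-regulated receptors (6.15% of all genes) and 1 up-regulated. With 12439296 to 16682194 counts per library, 3 counts are 0.179 to 0.247 CPM. Differences in receptors near or below that level in both groups were not detectable at this depth.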
